A study of Mus musculus with 12 samples.

Results

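The hearts of mice that expressed an expanded GGC repeat in every tissue were compared with the hearts of control mice at postnatal day 30. Members were chosen by the model and genotype in the sample titles, which gave 3 EIIa-tg and 3 EIIa-ctl hearts, 6 of the 12 hearts sequenced in the study. All 6 mice carried a conditional transgene at the Rosa26 site in which a stop sequence flanked by loxP sites precedes NOTCH2NLC with 98 GGC repeats. EIIa-tg mice also carried EIIa-Cre (written E2a in the labels), which is active from the embryo onward and removes the stop in all tissues. EIIa-ctl mice carried the transgene with its stop and no Cre. The transgene and Cre therefore differed together between the groups, and no group with Cre alone was part of this comparison. The labels give the hearts of a group as separate replicates and do not say whether any was pooled. The extraction note in the labels names brain, while tissue, source and title say heart, and the heart muscle genes Myh6, Tnnt2 and Actc1 were among the most abundant transcripts in all 6 libraries. The titles and the study's methods do not say which part of the heart was taken. RNA of heart tissue holds cardiomyocytes, fibroblasts, endothelial cells, macrophages and blood together, so that fewer cells of a type and less RNA per cell cannot be told apart. The genotype field of EIIa-tg replicates 2 and 3 reads e3a and e4a in place of e2a, and these 2 hearts were grouped by their titles. The other 6 hearts of the study, from 90-day-old mice of a cardiomyocyte-specific model, were used only in an alternative fit.

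NOTCH2NLC is a human gene derived from NOTCH2, and expansion of its GGC repeat causes neuronal intranuclear inclusion disease. The repeat can be translated into polyglycine (polyG), which forms inclusions in nuclei that stain for ubiquitin and for p62, the autophagy receptor encoded by Sqstm1. Cells that carry protein aggregates are known to draw on chaperones, on the proteasome, on autophagy and on the KEAP1-NRF2 pathway, in which p62 can bind KEAP1 and so release NRF2, the transcription factor that activates antioxidant genes. A heart under strain is known to return to genes of the fetal heart, such as those of natriuretic peptides and of the slow myosin heavy chain, and to reduce genes of calcium cycling, ion channels and fuel oxidation.

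Reads were counted per gene by the authors, and totals lay between 40440321 and 50969834 counts per heart. Levels are given as CPM, counts relative to the library size after TMM scaling, in the order of replicates 1, 2 and 3, and where levels are set against each other the 3 controls come first. Of 14908 loci that passed edgeR's filter on low counts, 1289 were called higher (8.65% of those tested) and 1238 lower (8.3%) in EIIa-tg hearts at an adjusted p under 0.05 by edgeR's quasi-likelihood test. At a change of 2-fold or more, 583 were higher (3.91%) and 300 lower (2.01%). The median log2 fold change of all loci was 0.02. These calls were not stable to the choice of hearts: without replicate 1 of either group no locus was called (smallest adjusted p = 0.0769 and 0.0538, with 4036 and 4173 loci at an unadjusted p under 0.05), so that every count of genes called by edgeR below becomes 0 there, and without EIIa-ctl replicate 3 it becomes 0 or 1. DESeq2 was not run with a heart left out. Without EIIa-tg replicate 3, 133 loci were called, and without EIIa-tg replicate 2, 4079. DESeq2 called 3536 at the same threshold. For this reason the level in each heart is given beside the test for the main genes, the standard error of a log2 fold change is written SE, and medians of gene lists are given with their range when 1 heart was left out. Relative to FPKM the counts were centred lower: on log2 FPKM with a pseudocount of 1 the median of all loci was 0.13 and 77.9% of the called loci were higher, against 51.01% on counts, and with a pseudocount of 0.1 these values were 0.20 and 78.7%. There the medians of lists near 0 changed sign, those of autophagy receptors (0.19), core autophagy (0.16), cardiac regulators (0.14), clock genes (0.09), fatty acid genes (0.08), Notch genes (0.04) and endothelial markers (0.02) among them. Replicate 1 of each group held 4733 and 4224 counts of 4 Y-linked genes and the other 4 hearts held 0, so that both groups held the same mix of sexes.

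EIIa-tg hearts were not equally far from the controls. Over all genes tested, distances on log2 CPM were between 76.4 and 78.8 within EIIa-ctl and between 70.3 and 81.0 within EIIa-tg hearts. EIIa-tg replicates 1 and 3 lay between 107 and 132 from the controls, whereas EIIa-tg replicate 2 lay between 77.9 and 96.7 from them, and its nearest control was EIIa-ctl replicate 2. The median log2 difference from the control mean over genes called higher was 0.95 in replicate 1, 0.65 in replicate 2 and 1.10 in replicate 3, and over genes called lower it was -0.74, -0.44 and -0.89. These values describe genes that were called in the same hearts. Among the 2527 called genes, replicate 2 was the EIIa-tg heart nearest to the control mean in 2100 (83.1%). Of these called genes, 2522 had no overlap between the groups. Most genes named below were chosen as called and without overlap, so that separate groups in them are no further support. The plot of change against level shows called genes over most levels of expression, while none of the 10 genes with the most counts was called.

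**Figure D1:**
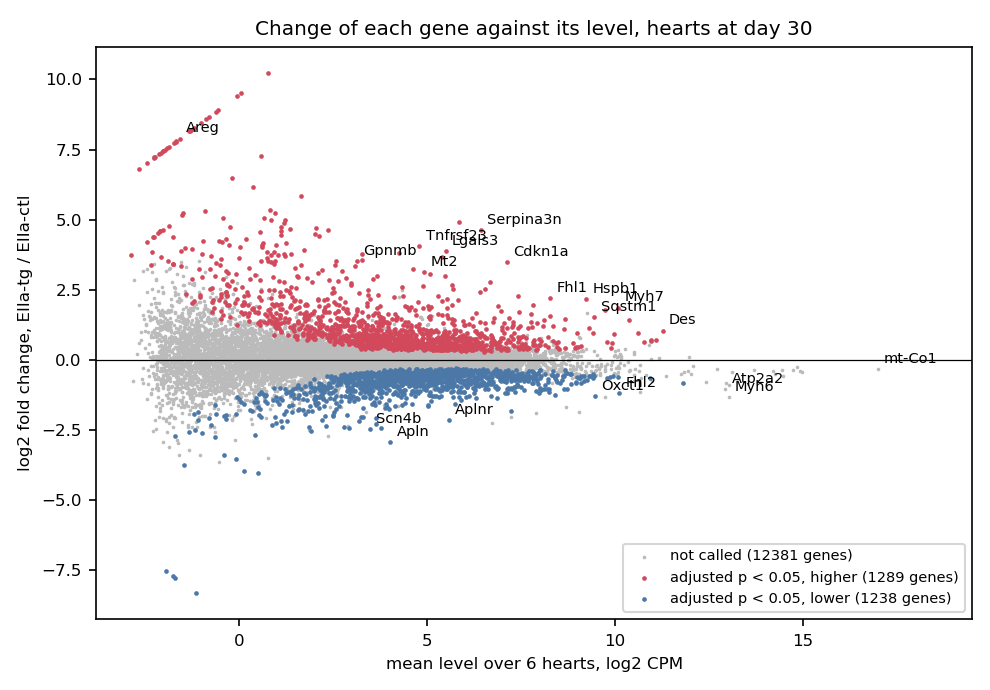
Log2 fold change of EIIa-tg over EIIa-ctl hearts (vertical) against the mean level over the 6 hearts in log2 CPM (horizontal), 1 point per locus, with 1289 called higher in red, 1238 called lower in blue and the rest in grey. Of the 14908 loci, 29 had 0 counts in all control hearts and 4 had 0 in all EIIa-tg hearts, and their plotted fold changes, in the diagonal at upper left and the points at lower left, depend on the prior count of the fit.

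Sqstm1 (chr11:50199366-50210827, GRCm38) encodes p62, the receptor that carries ubiquitinated cargo to autophagosomes and marks polyG inclusions. It had 361, 385 and 339 CPM in EIIa-ctl hearts and 1155, 762 and 1200.5 CPM in EIIa-tg hearts. Each of the transgenic hearts lay far above the controls (2.88-fold, log2 fold change 1.52, SE 0.18, adjusted p = 0.0135). Other autophagy receptors did not follow it as a list, since of 14 receptors tested only Sqstm1 was called higher and only Optn, which encodes the receptor optineurin, was called lower. Optn had 73.5, 38.4 and 63.6 CPM in controls and 27.7, 27.8 and 16.9 CPM in EIIa-tg hearts, without overlap (log2 fold change -1.28, SE 0.27, adjusted p = 0.0227). The median of the list was -0.01, and DESeq2 called 3 higher and 1 lower.

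Genes that NRF2 is known to activate, together with the genes of NRF2 and KEAP1 themselves, made up the list with the largest share of called genes among the stress lists. Of 40 genes tested, 24 were called higher and 0 lower, against 8.65% and 8.3% of all loci, and 37 of the 40 had a log2 fold change above 0. At an unadjusted p under 0.05 30 were higher and 0 lower, and DESeq2 called 28 higher and 0 lower. Their median was 0.75, and between 0.67 and 0.82 with 1 heart left out. The genes of the switch itself differed less. Keap1, the adaptor that marks NRF2 for degradation, had 40.8, 41.5 and 43.1 CPM in controls and 41.8, 45.5 and 41.1 CPM in EIIa-tg hearts, which overlapped (log2 fold change 0.03, SE 0.09, adjusted p = 0.820). Nfe2l2, which encodes NRF2, had 92.5, 89.3 and 83.8 against 101, 104 and 112 CPM and was not called (log2 fold change 0.26, SE 0.09, adjusted p = 0.0782).

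Among the NRF2 targets that rose, Srxn1 (sulfiredoxin, which repairs oxidised peroxiredoxins) had 17.4, 28.8 and 15.6 CPM in controls and 79.5, 70.8 and 91.1 CPM in EIIa-tg hearts (log2 fold change 1.97, SE 0.23, adjusted p = 0.0135). Hmox1 (heme oxygenase) had 13.6, 16.6 and 10.8 against 53.7, 37.1 and 63.7 CPM (log2 fold change 1.91, SE 0.22, adjusted p = 0.0135). In both genes the groups did not overlap, as in nearly all called genes, and replicate 2 was the lowest EIIa-tg heart. Both subunits of the enzyme that limits glutathione synthesis rose, the catalytic Gclc with a log2 fold change of 0.91 and the modifier Gclm with 0.79 (adjusted p = 0.0160 and 0.0160). Genes of the thioredoxin system rose by smaller amounts: Txnrd1 0.72, Txn1 0.67 and Prdx1 0.46 on the log2 scale. Of the NADPH-producing pentose phosphate pathway, G6pdx (0.76), Pgd (0.75) and Taldo1 (0.78) were called higher, while Tkt was not (0.19, adjusted p = 0.189). Ferritin genes, which store iron, rose as well, Ftl1 by 0.96 and Fth1 by 0.69, though reads of both can be split with near-identical copies. Nqo1, a quinone reductase often used as a marker of NRF2, had 36.5, 43.0 and 36.5 CPM in controls and 91.0, 52.96 and 46.4 CPM in EIIa-tg hearts. Its groups did not overlap, but EIIa-tg replicate 1 stood alone and it was not called (log2 fold change 0.71, SE 0.23, adjusted p = 0.0674).

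NRF2 binds an antioxidant response element, here searched as TGACNNNGC on both strands from 250 bases before to 50 bases after each start site in RefSeq's GRCm38.p6 table. Among the 24 NRF2 list genes called higher, 19 had a promoter in that table and 11 of these (57.9%) held the motif at some start site. Among the 16 not called, 15 had a promoter and 3 (20%) held it, the NRF2 gene Nfe2l2 among them. Of all 32851 promoters searched 12.4% held the motif, and of their 27025 genes 14.0% held it at some start site. A match is a run of letters and not a measured binding site. The 6 stretches shown are those of the called genes with the largest log2 fold changes that carry the motif before the start site. They are shown to let the motif be read in its setting, with the motif in capitals and each sequence 5′ to 3′ on the strand of its gene.
Pir (chrX:164269191-164269251, plus strand): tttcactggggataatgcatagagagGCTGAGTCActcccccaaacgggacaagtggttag
Maff (chr15:79346483-79346543, plus strand): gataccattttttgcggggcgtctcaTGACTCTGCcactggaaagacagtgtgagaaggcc
Gsta3 (chr1:21240438-21240498, plus strand): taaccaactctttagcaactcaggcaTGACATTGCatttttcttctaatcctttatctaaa
Mgst1 (chr6:138140445-138140505, plus strand): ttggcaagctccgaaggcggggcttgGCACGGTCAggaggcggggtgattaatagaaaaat
Gclm (chr3:122245397-122245457, plus strand): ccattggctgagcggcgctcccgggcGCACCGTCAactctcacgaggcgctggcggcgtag
Mafg (chr11:120633735-120633795, minus strand): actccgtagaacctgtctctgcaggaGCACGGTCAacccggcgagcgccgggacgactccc
In Maff and Gsta3 the motif lies in the written direction (TGACNNNGC), and in the other 4 its reverse complement is shown. Pir encodes pirin, an iron-dependent nuclear protein, and had 1.91, 4.42 and 3.59 CPM in controls and 11.05, 10.6 and 11.7 CPM in EIIa-tg hearts. Maff and Mafg encode small MAF proteins, the partners with which NRF2 binds DNA. Maff had 6.24, 5.40 and 5.16 against 15.1, 11.5 and 16.1 CPM, and Mafg 34.6, 32.1 and 29.0 against 54.0, 48.5 and 61.2 CPM. Gsta3 and Mgst1, which encode glutathione transferases, had log2 fold changes of 1.30 and 1.06. In Pir, Maff and Mafg every EIIa-tg heart was above every control.

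**Figure D2:**
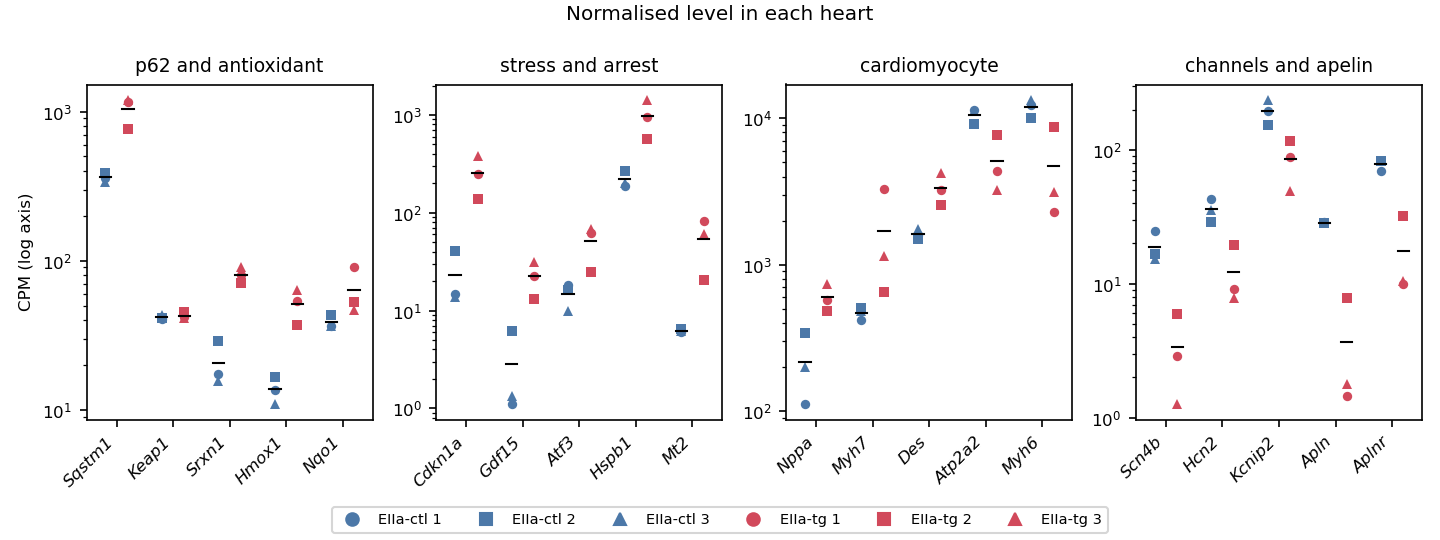
Normalised level in CPM (log axis) of 20 genes in each of the 3 EIIa-ctl (blue) and 3 EIIa-tg hearts (red), with the replicate number given by the shape of the point and the group mean by a black line. Sqstm1, Srxn1, Hmox1, Cdkn1a, Hspb1 and Mt2 are higher in all 3 EIIa-tg hearts and Keap1 is not, Myh7 is highest in EIIa-tg replicate 1, and Apln and Aplnr are lower in all 3, with replicate 2 (square) nearest to the controls in most genes.

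Of 20 metallothioneins and other antioxidant genes outside the NRF2 list 9 were called higher and 2 lower. Metallothioneins, which bind zinc and copper, rose: Mt2 had 6.003, 6.46 and 6.13 CPM in controls and 83.0, 20.6 and 60.0 CPM in EIIa-tg hearts (log2 fold change 3.14, SE 0.44, adjusted p = 0.0147), and Mt1 had 35.6, 38.6 and 39.2 against 172, 64.5 and 122 CPM. In these genes EIIa-tg replicate 2 was the lowest EIIa-tg heart but lay above all controls. The peroxisomal Cat (0.80), the extracellular Gpx3 (1.44) and Sod3 (0.57) and the cytosolic and mitochondrial Gpx1 (0.38) and Gpx4 (0.43) were called higher. The mitochondrial Sod2 (-0.46) and Prdx3 (-0.83) were the genes called lower.

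Some heat shock genes rose, small heat shock genes among them, and edgeR called no gene of the endoplasmic reticulum stress response. Of 35 heat shock genes 8 were called higher and 2 lower, with a median of 0.08. Hspb1, a small heat shock protein that protects filaments, had 189.8, 266 and 202 CPM in controls and 949, 564 and 1432 CPM in EIIa-tg hearts (log2 fold change 2.16, SE 0.31, adjusted p = 0.0157). Cryab, the chaperone of desmin, had 956, 1131 and 1059.9 against 2178, 1589.9 and 2419 CPM (log2 fold change 0.98, SE 0.18, adjusted p = 0.0183). The muscle small heat shock genes Hspb7, Hspb6 and Hspb2 had log2 fold changes of 0.72, 0.62 and 0.74 and were called higher. Of the genes induced by the heat shock factor HSF1, Hsp90aa1, a general cytosolic chaperone, was called higher (142, 138 and 103 against 259.8, 219 and 373 CPM, log2 fold change 1.15), while Hspa1a (0.94, adjusted p = 0.266) and Dnajb1 (-0.59, adjusted p = 0.0633) were not called. Fkbp4, a co-chaperone of steroid receptors, was called lower (-1.18), as was Hspa4l (-0.59). Of 25 genes of the unfolded protein response of the endoplasmic reticulum 0 were called by edgeR, with log2 fold changes between -0.34 and 0.46 and a median of 0.14. At an unadjusted p under 0.05 6 were higher and 1 lower, and DESeq2 called 2 higher and 1 lower.

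Some genes of protein breakdown rose by small amounts. Of 39 proteasome genes 8 were called higher and 0 lower, all with log2 fold changes between 0.34 (Psmd13) and 0.58 (Psmd11), and 33 of 39 were above 0 with a median of 0.21 (DESeq2 called 11 higher and 1 lower). Among deubiquitinases, Otulin, which trims linear ubiquitin chains, had 23.3, 23.2 and 22.02 CPM in controls and 66.3, 49.4 and 91.4 CPM in EIIa-tg hearts (log2 fold change 1.60, SE 0.20, adjusted p = 0.0135), and Otud1 (1.504) and Uchl1 (1.54) rose as well. The muscle ubiquitin ligases Trim63 (0.14) and Fbxo32 (0.16), which mark muscle atrophy, were not called. Of 31 core autophagy genes 3 were called higher, namely Atg13 (1.21), Gabarapl1 (0.80) and Gabarap (0.53), and Ulk2 was called lower (-0.51), a share near the 8.65% of all loci called higher and below the 8.3% called lower. The median of that list was -0.05, which changed sign on FPKM as given above.

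Lysosomal genes were called higher in 18 of 40 cases and lower in 0 (21 and 0 by DESeq2), with a median of 0.37. The largest change was that of Atp6v0d2, a proton pump subunit of phagocytes and osteoclasts, which was low in all hearts (0.0876, 0.276 and 0.288 against 3.73, 2.14 and 5.21 CPM, log2 fold change 4.09). Others with large changes are abundant in macrophages: Cd68 had 10.6, 15.6 and 13.2 CPM in controls and 38.1, 25.9 and 54.1 CPM in EIIa-tg hearts, and Ctss 20.4, 36.3 and 17.4 against 68.2, 49.5 and 92.3 CPM. Called genes that all cells use had smaller fold changes, among them Lamp2 (0.38), Ctsl (0.40) and Hexa (0.52), while Lamp1 (0.14), Ctsd (0.35) and Tfeb, which encodes the main activator of lysosomal genes (-0.01), were not called. Macrophage markers rose in the same hearts, from a sum of 353 to 508 CPM in controls to 671 to 886 CPM in EIIa-tg hearts, and their part in the lysosomal genes was not tested.

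The integrated stress response, in which phosphorylation of the initiation factor eIF2 raises ATF4, was represented by 30 genes, of which 8 were called higher and 0 lower. By DESeq2 these counts were 12 and 3. Atf4 had 73.5, 77.5 and 84.8 CPM in controls and 142, 101 and 155 CPM in EIIa-tg hearts (log2 fold change 0.75, SE 0.16, adjusted p = 0.0227). Gdf15, a secreted stress hormone, had 1.10, 6.18 and 1.34 against 22.5, 13.1 and 31.7 CPM, with EIIa-ctl replicate 2 above the other controls but below every EIIa-tg heart (log2 fold change 2.97, SE 0.63, adjusted p = 0.0237). Atf3 (1.80) and Ppp1r15a, a phosphatase subunit that ends the response (1.62), rose too. The ATF4 targets of amino acid supply did not move as one, since Psat1 (1.39) and Slc3a2 (0.86) were called higher while Asns (0.11), Phgdh (-0.13), Chac1 (-0.11) and Trib3 (0.38) were not called. The C/EBP-ATF element through which ATF4 acts was searched as TGATGNAA in the same promoters. It was found at some start site in 2 of 8 list genes called higher (Atf3 and Nupr1). Among those not called that had a promoter searched, 7 of 18 held it, against 4.51% of all genes searched.

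Targets of p53 were called higher more often than lower. Cdkn1a (chr17:29090976-29100727) encodes p21, the inhibitor of cyclin-dependent kinases, and is a target of p53 and of the glucocorticoid receptor. It had 14.7, 40.5 and 13.6 CPM in controls and 252, 139 and 380.3 CPM in EIIa-tg hearts (log2 fold change 3.49, SE 0.51, adjusted p = 0.0160). EIIa-ctl replicate 2 was the highest control, and all EIIa-tg hearts were above it. Of 29 p53 targets 12 were called higher and 3 lower, with a median of 0.56 (between 0.43 and 0.65 with 1 heart left out). Eda2r, a receptor of the TNF family, had 5.35, 6.58 and 4.61 against 19.9, 15.5 and 24.8 CPM (log2 fold change 1.86, SE 0.20, adjusted p = 0.0135), and Phlda3, an inhibitor of AKT, had 13.7, 28.8 and 17.1 against 66.7, 51.9 and 97.7 CPM. The apoptosis genes Bax (1.03) and Fas (0.78) rose along with the anti-apoptotic Bcl2l1 (1.02) and with Mdm2 (0.73), which ends p53 activity. Gadd45a (-1.30), Ccng1 (-0.70) and Rrm2b (-0.49) were the 3 called lower, and Trp53 itself was not called (0.26, adjusted p = 0.206).

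Of 36 cell cycle genes 1 was called higher, Mcm7 (0.71), and 2 lower, the cyclins that start the cycle. The called shares of this list lay below those of all loci tested (8.65% higher and 8.3% lower). Ccnd1 had 85.7, 88.1 and 87.5 CPM in controls and 18.9, 50.9 and 26.05 CPM in EIIa-tg hearts (log2 fold change -1.45, SE 0.31, adjusted p = 0.0242), and Ccnd2 had 83.2, 87.5 and 93.2 against 36.1, 62.7 and 35.3 CPM. Both were low in all 3 EIIa-tg hearts, least so in replicate 2. Genes of mitosis were uneven between hearts and none was called, with Mki67 at 3.40, 7.16 and 2.38 CPM in controls and 1.44, 3.08 and 2.08 CPM in EIIa-tg hearts (-0.96, adjusted p = 0.160).

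Some targets of the glucocorticoid receptor and some immediate early genes were called higher, and none lower. Of 24 glucocorticoid targets 12 were called higher and 0 lower, with a median of 0.82 (15 and 0 by DESeq2). Fkbp5, a chaperone that dampens the receptor, had 9.90, 12.6 and 8.04 CPM in controls and 46.4, 23.9 and 41.7 CPM in EIIa-tg hearts (log2 fold change 1.87, SE 0.26, adjusted p = 0.0147). Map3k6 (1.44), Cebpd (1.30) and Fam107a (1.20) rose, while Tsc22d3 (0.24), Sgk1 (0.33), Klf9 (-0.18) and the receptor gene Nr3c1 (-0.24) were not called. Of 31 immediate early genes 12 were called higher, among them Myc (1.91), Junb (1.61) and Socs3 (1.73). Fos had 3.29, 6.31 and 3.27 CPM in controls and 20.0, 5.15 and 14.1 CPM in EIIa-tg hearts, where EIIa-tg replicate 2 lay among the controls. In the mean over this list EIIa-tg replicates 1 and 3 were 1.07 and 1.05 above the controls on the log2 scale and replicate 2 was 0.35 above. Of 19 clock genes only Per1, which is in the glucocorticoid list too, was called (0.60), a share below the 8.65% of all loci called higher.

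**Figure D3:**
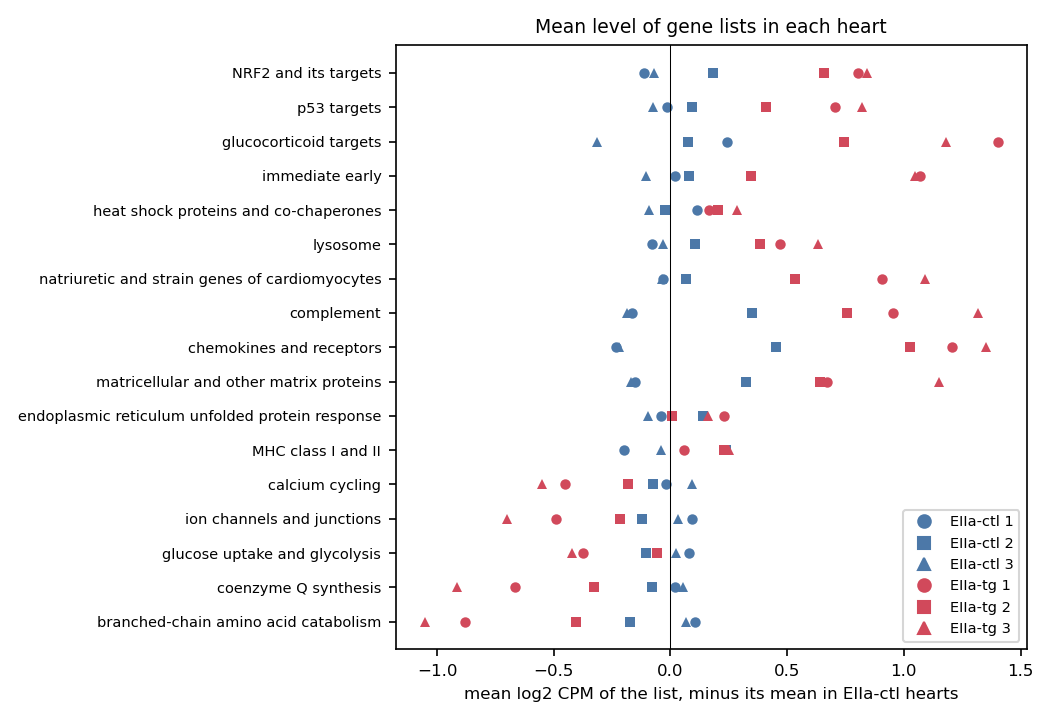
Mean log2 CPM of 17 gene lists in each heart, minus the mean of that list in the 3 EIIa-ctl hearts (horizontal), with EIIa-ctl hearts in blue, EIIa-tg hearts in red and the replicate given by the shape. For NRF2 and its targets the EIIa-tg hearts lie at 0.80, 0.66 and 0.84 and the controls at -0.11, 0.18 and -0.07. For the unfolded protein response, in contrast, EIIa-tg replicate 2 lies at 0.01 and EIIa-ctl replicate 2 at 0.14.

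Genes of strain in cardiomyocytes were called in both directions, more of them higher than lower. Of 18 genes 10 were called higher and 4 lower, with a median of 1.27 (between 0.99 and 1.44 with 1 heart left out). Abra, an actin-binding activator of serum response factor, had 25.1, 33.9 and 20.4 CPM in controls and 156, 95.8 and 177 CPM in EIIa-tg hearts (log2 fold change 2.43, SE 0.26, adjusted p = 0.0135). Fhl1, a LIM protein of the sarcomere that responds to stretch, had 91.3, 137 and 104 against 519.8, 289 and 715 CPM (log2 fold change 2.198, SE 0.31, adjusted p = 0.0147). Neither gene overlapped between groups. Fhl2, a relative of Fhl1, went the other way, with 1522, 1470.4 and 1646 CPM in controls and 486, 1061 and 475 CPM in EIIa-tg hearts (log2 fold change -1.20, SE 0.30, adjusted p = 0.0335). Tnfrsf12a, the receptor of TWEAK (2.13), Ctgf, a matrix protein induced by stretch (1.97), and Rcan1, a feedback inhibitor of calcineurin (1.11), rose. Ankrd1, a stretch-responsive repressor at the I-band, had 877, 621 and 653 against 2581, 1018 and 2209.6 CPM, with the EIIa-tg hearts 1 and 3 far above replicate 2. Besides Fhl2, the transcriptional regulators Hopx (-0.96) and Myocd (-0.79) were called lower, as was Acta1, described next.

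The natriuretic peptide gene Nppa had 111, 341 and 200.5 CPM in controls and 572, 483 and 741 CPM in EIIa-tg hearts, with wide spread among controls and no overlap (1.46, adjusted p = 0.0326). Nppb had 40.7, 85.6 and 51.1 against 136, 68.9 and 130.2 CPM, in which EIIa-tg replicate 2 fell within the controls, and it was not called (log2 fold change 0.92, SE 0.32, adjusted p = 0.0793). Atrial tissue also expresses Nppa. Of 3 atrial markers tested Nppa was the only one called by edgeR (all 3 were called by DESeq2), with Myl4 at 1.00 (adjusted p = 0.0587). Their summed level was 160.2 to 399.5 CPM in controls and 542 to 815 CPM in EIIa-tg hearts. This sum includes Nppa and was mostly Nppa in each heart, so that it gives no separate measure of atrial tissue. The part of atrial tissue in the level of Nppa was not tested. The skeletal actin gene Acta1, which the fetal heart expresses, was called lower (231, 266 and 282 CPM in controls and 65.7, 171 and 134 CPM in EIIa-tg hearts, log2 fold change -1.07).

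The myosin heavy chains differed most from heart to heart. Myh7, the slow heavy chain, had 417, 503 and 479 CPM in controls and 3304, 646 and 1148 CPM in EIIa-tg hearts (log2 fold change 1.87, SE 0.51, adjusted p = 0.0423). EIIa-tg replicate 1 was far above the other 2, and without it the log2 fold change was 0.94. Myh6, the fast heavy chain of the adult mouse heart, had 12360.4, 10069 and 13385 CPM in controls and 2291, 8730.2 and 3119 CPM in EIIa-tg hearts and was not called (log2 fold change -1.34, SE 0.46, adjusted p = 0.0773). Per length of transcript, in the authors' FPKM, Myh7 made up 3.18%, 4.57% and 3.35% of both heavy chains in controls and 55.3%, 6.71% and 25.1% in EIIa-tg hearts. The share was higher in each EIIa-tg heart than in any control, by the least in replicate 2.

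Of 25 sarcomere genes 6 were called higher and 4 lower, with a median of -0.31. The called rises were in isoforms of slow or skeletal muscle (Tnnt3, Myl1, Tnni1, Myh7, Mybpc2 and Tnnt1). Tnni1, the slow skeletal troponin I that the fetal heart uses, had 0.175, 0.302 and 0.209 against 0.850, 0.578 and 1.59 CPM (log2 fold change 2.13, SE 0.56, adjusted p = 0.0375). Myl1, a light chain of fast skeletal muscle, had 18.2, 41.8 and 21.5 CPM in controls and 127, 122 and 226 CPM in EIIa-tg hearts (log2 fold change 2.54, SE 0.36, adjusted p = 0.0147), and Tnnt3, the fast troponin T, had 0.110, 0.201 and 0.209 against 1.56, 2.66 and 4.34 CPM. Of the other skeletal muscle markers, Myh1, Myh2, Myh4 and Actn3 had at most 8 counts in any heart. Tnni2, Mylpf and Atp2a1 had 12 to 48 counts in every heart, with groups that overlapped, and Tnnt3 had 5 to 8 counts in controls. Main ventricular isoforms were lower or not called, with Myl3 called at -0.84 and Actc1 (-0.90), Tnni3 (-0.74) and Myl2 (-0.59) not called by edgeR. Lmod3, a nucleator of actin filaments, fell (102, 77.0 and 115 against 33.8, 51.8 and 33.7 CPM, log2 fold change -1.30). DESeq2 called 10 of these genes lower.

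Z-disc and intermediate filament genes were divided. Of 36 tested, 11 were called higher and 6 lower. Des, which encodes desmin, the intermediate filament that links Z-discs to each other and to the nucleus, had 1590.1, 1502 and 1742 CPM in controls and 3214, 2554 and 4197 CPM in EIIa-tg hearts. Each EIIa-tg heart exceeded each control (log2 fold change 1.04). Pdlim3, an actinin-associated protein of the Z-disc, had 11.02, 20.8 and 9.63 against 80.0, 47.8 and 134 CPM (log2 fold change 2.66, SE 0.41, adjusted p = 0.0166). The other called rises included the actin crosslinker Flnc (1.31), Xirp2 (1.55) and Xirp1 (0.87), Synpo2l (1.36), Klhl41 (1.33) and Nrap (1.13). The called falls included Myom1 of the M-band (-0.77) and Ldb3 (-0.66). At the nucleus, Lmna, which encodes the lamins A and C, rose (83.9, 90.2 and 94.3 against 171, 136 and 216 CPM, log2 fold change 0.96), as did the inner membrane genes Tmem43 (1.42) and Emd (0.41). Of 41 genes of lamina, pores and transport 5 were called higher and 1 lower, against 8.65% and 8.3% of all loci tested. Of the 41, 25 had a log2 fold change below 0, and the median was -0.08, which changed sign on FPKM.

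Genes of calcium cycling were called only lower. Of 25 tested, 8 were called lower and 0 higher (13 lower and 0 higher by DESeq2), with a median of -0.36. Ryr2, the channel that releases calcium from the sarcoplasmic reticulum, had 599, 452 and 575 CPM in controls and 208, 383 and 194 CPM in EIIa-tg hearts (log2 fold change -1.05, SE 0.26, adjusted p = 0.0322). Hrc, a calcium-binding protein of the same store, had 507, 409.7 and 523 against 173, 307 and 130.3 CPM (log2 fold change -1.24, SE 0.28, adjusted p = 0.0281). Jph2, which holds that store against the T-tubule, also fell (-0.63). Atp2a2, the pump SERCA2a that refills the store, had 11402, 9077 and 11232 CPM in controls and 4380.4, 7671 and 3245 CPM in EIIa-tg hearts. Its groups did not overlap and its adjusted p was 0.0521 (log2 fold change -1.05), while its inhibitor Pln was not called either (-0.78, adjusted p = 0.0533).

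Of 45 genes of ion channels and junctions 13 were called lower and 2 higher, with a median of -0.48 (between -0.65 and -0.31 with 1 heart left out). The falls included channels for sodium, potassium and pacemaker currents. Among sodium channel genes, Scn4b, which encodes a beta subunit, had 24.8, 16.7 and 15.2 CPM in controls and 2.90, 5.96 and 1.25 CPM in EIIa-tg hearts (log2 fold change -2.48, SE 0.47, adjusted p = 0.0194). Among potassium channels, Kcnip2, the subunit that sets the transient outward current, had 196, 153 and 237 against 88.8, 117 and 49.5 CPM (log2 fold change -1.20, SE 0.29, adjusted p = 0.0317), and Kcnq1 fell (-0.94). The pacemaker channel gene Hcn2 fell (43.0, 29.0 and 35.8 against 9.21, 19.47 and 7.80 CPM). Gja1, which encodes connexin 43 of the gap junctions, had 340.2, 339 and 415 CPM in controls and 226, 246 and 204 CPM in EIIa-tg hearts (log2 fold change -0.70, SE 0.12, adjusted p = 0.0178).

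Genes of fuel use were lower in some pathways and divided in others. Breakdown of branched-chain amino acids had the largest share of called genes among the 43 lists other than cell markers, with 16 of 20 genes called lower and 0 higher, against 8.3% of all loci, and a median of -0.81 (between -1.07 and -0.66 with 1 heart left out). The genes span the pathway, from the transaminase Bcat2 (-0.85) and the dehydrogenase subunits Bckdhb (-1.30) and Dbt (-1.07) to Mccc2 of the leucine branch (-1.29) and Pcca and Mut of the propionate branch (-1.13 and -1.16). Dbt had 63.8, 40.9 and 56.0 CPM in controls and 23.2, 30.6 and 22.6 CPM in EIIa-tg hearts (log2 fold change -1.07, SE 0.18, adjusted p = 0.0167). The phosphatase Ppm1k that activates the dehydrogenase fell (-1.12), whereas the kinase Bckdk that inhibits it was not called (0.06). In the mean over the list the EIIa-tg hearts were at -0.88, -0.41 and -1.05 on the log2 scale relative to controls, which were between -0.17 and 0.11.

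Of 13 genes for the synthesis of coenzyme Q, the electron carrier of the respiratory chain, 8 were called lower and 1 higher, with a median of -0.70. Pdss1, which makes the tail of the molecule, had 16.2, 13.8 and 16.2 CPM in controls and 7.51, 7.89 and 4.85 CPM in EIIa-tg hearts (log2 fold change -1.19, SE 0.19, adjusted p = 0.0166), and Coq9 had 421, 346 and 406 against 179, 261 and 129 CPM (log2 fold change -1.04, SE 0.23, adjusted p = 0.0257). The exception was Coq8b, which rose (0.65). Of 33 genes of glucose use 10 were called lower and 2 higher. The insulin-responsive transporter Slc2a4 (-1.04), hexokinase Hk2 (-1.18) and the pyruvate dehydrogenase subunits Dlat (-0.79) and Pdha1 (-0.64) fell. Txnip, which blocks glucose uptake and binds thioredoxin, had 559, 299 and 312 CPM in controls and 1741, 960.3 and 1279 CPM in EIIa-tg hearts (log2 fold change 1.77, SE 0.30, adjusted p = 0.0166). Gapdh, often used as a reference gene, had 238, 139 and 96.3 against 73.9, 72.4 and 81.1 CPM and was called lower, with EIIa-ctl replicate 1 apart from the other controls (-1.31 to -0.63 on the log2 scale with 1 heart left out), though reads of Gapdh can be split with its many pseudogenes.

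Lipid genes were divided, with 5 of 39 called higher and 8 lower (median -0.14, which changed sign on FPKM). Of all loci tested, 8.65% were called higher and 8.3% lower. The rises included genes known as targets of PPAR receptors and of fasting: Angptl4, an inhibitor of lipoprotein lipase, had 9.57, 11.8 and 3.35 CPM in controls and 75.3, 24.3 and 54.4 CPM in EIIa-tg hearts (log2 fold change 2.63, SE 0.51, adjusted p = 0.0201), with EIIa-tg replicate 1 highest and replicate 2 lowest. The lipases Lipe (0.94) and Pnpla2 (0.61) and the uncoupling protein gene Ucp2 (1.24) rose. Oxct1, which lets the heart burn ketone bodies, fell (1127, 863 and 1034 against 254, 707 and 280.0 CPM, log2 fold change -1.28, SE 0.37, adjusted p = 0.0465, and a log2 fold change of -1.92 without EIIa-tg replicate 2), and Bdh1 of the same pathway was not called (-1.12 on the log2 scale, adjusted p = 0.204). Enzymes of oxidation were called lower by smaller amounts, among them Cpt2 (-0.63), Acsl1 (-0.59) and Echs1 (-1.03). Of 28 cardiac transcription and energy regulators 2 were called higher, Hand2 (1.02) and Klf11 (1.01), and 5 lower, against the same shares of all loci. Those called lower included Esrrg (-0.68), Perm1 (-0.72) and Rxrg (-0.94), whereas Ppargc1a (-0.11), Esrra (-0.14) and Tfam (-0.04) were not called.

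All 13 protein-coding genes of the mitochondrial genome had negative log2 fold changes, between -0.64 and -0.32, and 1 of them, mt-Nd4l, was called lower. DESeq2 called 12 of the 13 lower. Together they took 36.7%, 34.2% and 34.5% of the counts in controls and 31.4%, 32.3% and 28.5% in EIIa-tg hearts. They were 9 of the 10 genes with the most counts in these hearts, the other being a locus named NewGene_1278. Of these 10, mt-Co1 was the highest, with 158159, 133805 and 141317 CPM in controls and 122430.0, 126717 and 96892 CPM in EIIa-tg hearts, and it was not called (log2 fold change -0.32, SE 0.33, adjusted p = 0.520).

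Nmrk2, a kinase that makes NAD from nicotinamide riboside and is known to rise in strained muscle, was among the largest rises, with 1.56, 9.50 and 3.14 CPM in controls and 51.2, 22.9 and 58.3 CPM in EIIa-tg hearts (log2 fold change 3.23, SE 0.62, adjusted p = 0.0199). The 12 largest rises among called genes with an Ensembl identifier, an average of 5 CPM or more and separate groups also included Serpina3n, Tnfrsf23 (4.06), Lgals3, Cnn1, Ptgs2, Mmp12, Gpnmb, Cdkn1a, Timp1 and Tceal7 (3.18). Ptgs2, the inducible cyclooxygenase, had 0.745, 2.44 and 0.759 CPM in controls and 18.98, 8.56 and 26.3 CPM in EIIa-tg hearts (log2 fold change 3.78, SE 0.55, adjusted p = 0.0160). Cnn1, a calponin of smooth muscle, had 2.26, 2.61 and 2.70 against 24.1, 15.3 and 66.8 CPM (log2 fold change 3.81, SE 0.53, adjusted p = 0.0147), highest in EIIa-tg replicate 3, and no other smooth muscle marker of the 10 tested was called higher (Myh11 -0.08, Acta2 -0.45). Tnfrsf23, a decoy receptor of the TNF family, had 2.41, 4.02 and 3.04 against 34.3, 30.1 and 92.7 CPM (3.35 to 4.33 on the log2 scale with 1 heart left out).

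The gene that fell most by the same criteria was that of a secreted ligand, and the gene of its receptor fell with it. Apln (chrX:48025146-48034853) encodes apelin, a peptide made by endothelial cells that widens vessels and raises the force of the heart. It had 29.1, 28.5 and 28.4 CPM in controls and 1.46, 7.81 and 1.79 CPM in EIIa-tg hearts (log2 fold change -2.94, SE 0.56, adjusted p = 0.0191). Aplnr, its receptor, had 69.7, 83.2 and 82.1 CPM in controls and 9.98, 31.9 and 10.6 CPM in EIIa-tg hearts (log2 fold change -2.16, SE 0.41, adjusted p = 0.0197). In both genes the controls lay close together, EIIa-tg replicates 1 and 3 were lowest, and replicate 2 lay between. Without EIIa-tg replicate 2 the log2 fold changes were -4.14 and -2.93. Other falls of this kind were those of Itgb6, an integrin subunit that activates TGF-beta (14.9, 15.8 and 14.3 against 2.17, 6.27 and 1.36 CPM), of Lrrc15 (-2.30, and -3.62 without EIIa-tg replicate 2), and of Mest, an imprinted gene of growing tissue (12.9, 18.9 and 13.8 against 1.72, 6.03 and 3.23 CPM, log2 fold change -2.04). The 12 largest falls also included Scn4b, the erythroid Alas2, Klhdc8a (-2.42), Lrrc14b (-2.38), Lingo3 (-2.001) and Ip6k3 (-1.96). Of 14 imprinted genes tested Mest was the only one called lower and Igf2 (0.76) the only one called higher. Both shares lay below those of all loci tested (8.3% lower and 8.65% higher).

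Some endothelial genes fell. Of 11 endothelial markers 3 were called lower and 0 higher by edgeR and by DESeq2, the VEGF receptor Kdr (178, 208 and 186 CPM in controls and 111, 144 and 100.3 CPM in EIIa-tg hearts, log2 fold change -0.69), the cadherin Cdh5 (-0.59) and Tie1 (-0.46), whereas Pecam1 (-0.17), Cldn5 (0.02) and Emcn (-0.21) were not called, and the median was -0.17. Vegfa, the ligand of Kdr, was not called (-0.61, adjusted p = 0.102). The basement membrane collagens Col4a1 (-0.64) and Col4a2 (-0.57) were called lower. In the Notch pathway, from which the human transgene is derived, 3 of 21 genes were called lower and 1 higher. Of all loci tested, 8.3% were called lower and 8.65% higher. The median of the Notch list was -0.16, which changed sign on FPKM. Nrarp, a feedback inhibitor made where Notch is active, had 23.7, 30.2 and 25.3 CPM in controls and 8.07, 17.2 and 7.55 CPM in EIIa-tg hearts (log2 fold change -1.27, SE 0.30, adjusted p = 0.0300), and the endothelial ligand Dll4 fell (-0.67). The receptor gene Notch2 had 13.5, 12.8 and 11.2 against 14.6, 13.4 and 16.2 CPM and was not called (log2 fold change 0.24, SE 0.13, adjusted p = 0.217). The transgene itself and Gt(ROSA)26Sor, where it was inserted, were not analysed here, and the neighbours of the insertion site, Setd5 (-0.14) and Thumpd3 (-0.07), were not called.

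Some genes of the matrix were called higher, none of them a collagen. Of 41 genes of matricellular and other matrix proteins 16 were called higher and 0 lower, with a median of 0.76 (23 and 0 by DESeq2, and a median between 0.56 and 0.91 with 1 heart left out). Thbs1, which frees latent TGF-beta, had 11.2, 20.2 and 7.67 CPM in controls and 50.5, 31.7 and 58.2 CPM in EIIa-tg hearts (log2 fold change 1.85, SE 0.35, adjusted p = 0.0194), and Spp1 (osteopontin) had 1.82, 2.39 and 0.340 against 10.8, 5.40 and 16.2 CPM (log2 fold change 2.83, SE 0.61, adjusted p = 0.0246). Prg4, a lubricating proteoglycan, had 8.30, 6.83 and 6.47 against 77.96, 19.2 and 82.6 CPM (log2 fold change 3.05, SE 0.49, adjusted p = 0.0166), with EIIa-tg replicate 2 far below the other 2 EIIa-tg hearts but above all controls. The small proteoglycan Dcn, abundant in fibroblasts, had 688, 729.7 and 648 against 1442, 994 and 1525 CPM (log2 fold change 0.94, SE 0.17, adjusted p = 0.0186). Fibroblast markers summed to 2982 to 3908 CPM in controls and 4968 to 6935 CPM in EIIa-tg hearts, and their part in the rise of matrix genes was not tested. Of 22 collagen genes 0 were called higher, although 17 had a log2 fold change above 0 and the median was 0.41. Col1a1 (103, 193 and 122 CPM in controls and 176, 237 and 323 CPM in EIIa-tg hearts, adjusted p = 0.0717) and Col3a1 (0.83, adjusted p = 0.115) were not called, and for Col1a1 EIIa-ctl replicate 2 stood above the other controls. At an unadjusted p under 0.05 8 collagens were higher, and DESeq2 called 5 higher and 3 lower.

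Proteases and their inhibitors were among the largest rises. Serpina3n (chr12:104406729-104414329), an inhibitor of serine proteases that is known as an acute-phase gene, had 6.62, 8.87 and 4.58 CPM in controls and 217, 47.3 and 235 CPM in EIIa-tg hearts, a 24.8-fold rise (log2 fold change 4.63, SE 0.59, adjusted p = 0.0135). Timp1, an inhibitor of metalloproteinases, had 0.898, 2.81 and 0.838 against 18.1, 5.98 and 22.5 CPM (log2 fold change 3.36, SE 0.60, adjusted p = 0.0178), and the macrophage metalloproteinase Mmp12 had 0.964, 1.56 and 0.314 against 13.6, 5.82 and 13.8 CPM (log2 fold change 3.54, SE 0.53, adjusted p = 0.0160). In all 3 genes EIIa-tg replicate 2 was the lowest EIIa-tg heart and was above all controls. Of 29 such genes 12 were called higher and 3 lower, the latter being Mmp15 (-1.16), Htra1 (-0.97) and Adamts9 (-0.88). Of the TGF-beta family, Tgfb2 rose (9.79, 18.2 and 11.6 against 59.1, 40.8 and 94.3 CPM, log2 fold change 2.29) while Tgfb1 (0.16) and Tgfb3 (0.22) were not called. The activin subunit gene Inhba (1.59) rose, and so did both secreted activin inhibitors, Fst (2.99) and Fstl3 (1.68).

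Among other secreted signals 12 of 27 genes were called higher and 0 lower (13 and 2 by DESeq2). They included the Wnt inhibitors Frzb (1.32), Dkk3 (1.58, and 1.00 without EIIa-tg replicate 3) and Sfrp1 (1.19), the alarmin Il33 (5.06, 8.07 and 5.42 against 21.98, 11.4 and 26.02 CPM, log2 fold change 1.68), the lipid carrier Apod (2.24), and Igf1 (0.83). Areg, an EGF receptor ligand, had 0 counts in all 3 controls and 0.708, 0.347 and 0.957 CPM in EIIa-tg hearts, at least 9.79-fold higher than a floor of 3 counts in each control.

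Among immune lists other than cell markers, complement had the largest share of called genes. Of 18 tested, 13 were called higher and 1 lower, with a median of 1.03. The central component C3 had 62.1, 63.6 and 47.0 CPM in controls and 327, 166 and 354 CPM in EIIa-tg hearts (log2 fold change 2.29, SE 0.27, adjusted p = 0.0135), and C4b, whose reads can be shared with its near-identical neighbour, had 9.33, 9.77 and 7.88 against 46.8, 18.0 and 36.6 CPM. Components that start, amplify and restrain the cascade rose, among them C1qa (0.88), Cfb (1.66) and Serping1 (1.16), together with the receptors C3ar1 (1.39) and C5ar1 (1.20). Macrophage markers (12 of 13 called higher) summed to 353 to 508 CPM in controls and 671 to 886 CPM in EIIa-tg hearts, 5 of 11 fibroblast markers were called higher, and the part of either in the rise of complement and chemokine genes was not tested. Cd59a, which protects cells from lysis, was the 1 complement gene called lower (-0.67). Of 29 chemokines and receptors 15 were called higher, among them Ccl6 (12.8, 18.7 and 12.4 against 57.7, 36.6 and 67.4 CPM), Ccl9 (1.77) and Ccl8 (3.69), and Cxcl9, a target of interferon gamma, was called lower (12.9, 14.9 and 11.2 against 5.74, 6.94 and 4.49 CPM, log2 fold change -1.18). Of 32 interferon-stimulated genes 7 were called higher, of which 4 (Ifi204, Ifi205, Ifi207 and Ifi211) are related genes of 1 family whose reads could be split between copies. Isg15 (0.55) and Ifit3 (0.52) were not called. Of 19 genes of MHC class I and II 0 were called by edgeR, 2 by DESeq2 and 2 at an unadjusted p under 0.05, with log2 fold changes between -0.49 and 0.67.

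Of 27 tubulins and other cytoskeletal genes 9 were called higher and 2 lower, and the tubulin isotypes went opposite ways. Tubb2b, an isotype of growing neurons, had 9.64, 12.4 and 9.22 against 25.6, 27.9 and 53.3 CPM (log2 fold change 1.77, SE 0.28, adjusted p = 0.0166), and Tubb2a (1.35) and Tuba1c (0.57) rose, whereas Tuba4a (484, 516 and 693 against 228, 383 and 221 CPM) and Tuba8 (-0.93) fell. Reads of tubulin genes may be split between similar copies. Of 37 genes of splicing factors and proteins that bind repeat RNA 3 were called higher, Hnrnpa1 (0.77), Srsf1 (0.68) and Hnrnph1 (0.44), and 2 lower, Qk, which encodes the splicing factor quaking (-0.54), and Drosha, the nuclease that starts microRNA processing (-0.59). Pura (0.21) and Dgcr8 (0.11), whose proteins are known to bind CGG repeat RNA, and Fmr1 (0.09) were not called. The called shares of this list lay below those of all loci tested (8.65% higher and 8.3% lower). The cardiac splicing regulator Rbfox1 had 26.7, 14.8 and 23.8 against 1.86, 13.8 and 5.40 CPM, where replicates 1 and 3 of EIIa-tg were low and replicate 2 was near the controls, and it was not called (log2 fold change -1.63, SE 0.58, adjusted p = 0.0849).

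Of 11 genes of energy transfer 3 were called lower and 0 higher (4 and 0 by DESeq2), all of them adenylate kinases (Ak3 -0.85, Ak4 -0.81 and Ak1 -0.52). The muscle creatine kinase Ckm had 2346, 1888 and 2505 against 777, 1673 and 611 CPM without overlap and was not called (log2 fold change -1.14, SE 0.35, adjusted p = 0.0551). Of 22 cholesterol synthesis genes 4 were called lower and 0 higher (5 and 0 by DESeq2), against 8.3% and 8.65% of all loci tested. Hsd17b7 was the most changed (25.6, 18.995 and 19.8 against 7.77, 14.9 and 8.12 CPM, log2 fold change -1.06), and on FPKM the median of this list changed sign too.

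**Figure D4:**
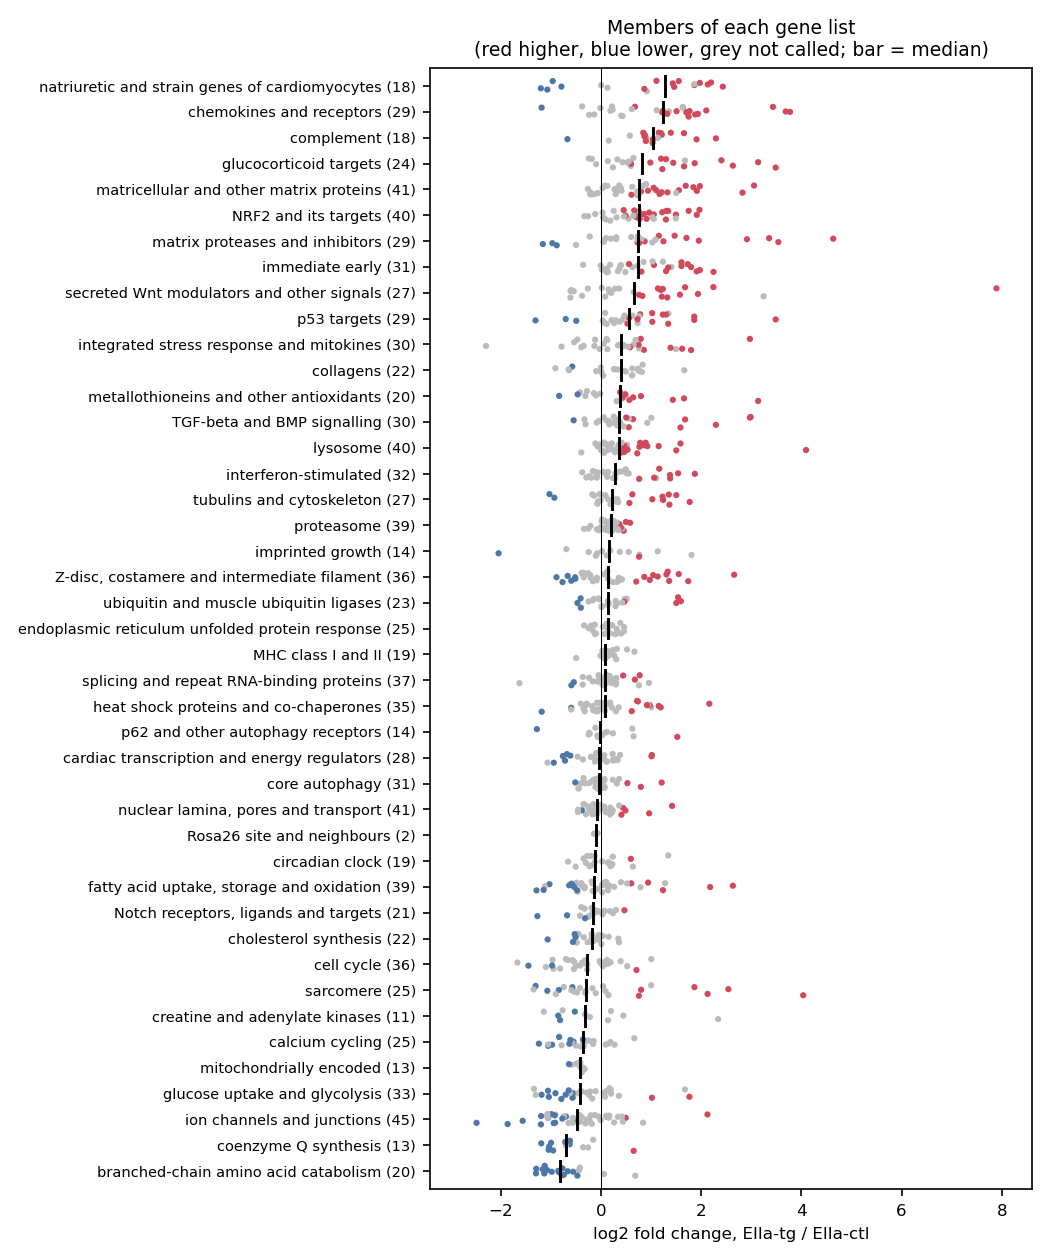
Log2 fold change of each tested member of the 43 gene lists (horizontal), 1 point per gene, red where called higher, blue where called lower and grey where not called, with the median of each list as a black bar and the number tested in brackets. Strain genes, chemokines and complement have the highest medians (1.27, 1.23 and 1.03) and branched-chain amino acid catabolism the lowest (-0.81). Genes are not independent replicates, and the point of Areg at the far right of its list rests on 0 counts in controls.

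Markers of cell types were examined in the same fit, as a check of the labelled tissue and to show which cell types moved with the groups. Cardiomyocyte markers were among the most abundant genes, and markers of lung and thymus were at 0 or at low counts. Of the lung markers, Sftpc, Sftpa1, Sftpb and Scgb1a1 had 0 counts in every heart and Ager had 0 to 35. Of the thymus markers, Rag1, Rag2 and Dntt had at most 6 counts, Themis had at most 16, and Ptcra had 0 counts in every control and 5, 5 and 17 in EIIa-tg hearts. Of 13 macrophage markers 12 were called higher and 1, Timd4 of long-resident macrophages, lower (2.74, 4.42 and 3.06 against 1.16, 2.01 and 1.42 CPM, log2 fold change -1.15). Their summed level was 353 to 508 CPM in controls and 671 to 886 CPM in EIIa-tg hearts. Adgre1, which encodes F4/80, had 15.2, 20.6 and 12.3 against 27.0, 31.7 and 39.8 CPM (log2 fold change 1.04, SE 0.21, adjusted p = 0.0221). The smallest of the called rises were those of Csf1r, the receptor these cells need to survive, and Lyve1 (0.55 and 0.46).

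Of 9 genes of phagocytic, lipid-handling macrophages 6 were called higher and 0 lower (7 and 0 by DESeq2). Lgals3 (galectin-3) had 3.05, 10.6 and 3.51 CPM in controls and 83.5, 45.02 and 125 CPM in EIIa-tg hearts (log2 fold change 3.88, SE 0.55, adjusted p = 0.0147), and Gpnmb had 1.10, 1.91 and 1.23 against 17.5, 8.48 and 22.5 CPM (log2 fold change 3.52, SE 0.39, adjusted p = 0.0135). Trem2, a receptor for lipids and debris, had 2.37, 3.94 and 2.12 against 8.80, 6.94 and 12.7 CPM (log2 fold change 1.76, SE 0.30, adjusted p = 0.0168). In these genes no EIIa-tg heart fell within the controls, of which replicate 2 was the highest. Monocyte and neutrophil markers were low throughout, with sums of at most 19.7 and 6.68 CPM, and 2 of each were called higher. Among mast cell markers the protease genes Tpsb2 (1.87) and Cma1 (1.39) were called higher and the receptor gene Kit, which other cells also express, lower (11.3, 12.99 and 13.1 against 3.68, 6.42 and 4.57 CPM, log2 fold change -1.34). Of 7 T and NK cell and 7 B cell markers 0 were called by edgeR and 0 by DESeq2, and 1 of each was higher at an unadjusted p under 0.05. Their summed levels lay between 2.39 and 4.76 and between 4.40 and 6.96 CPM.

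**Figure D5:**
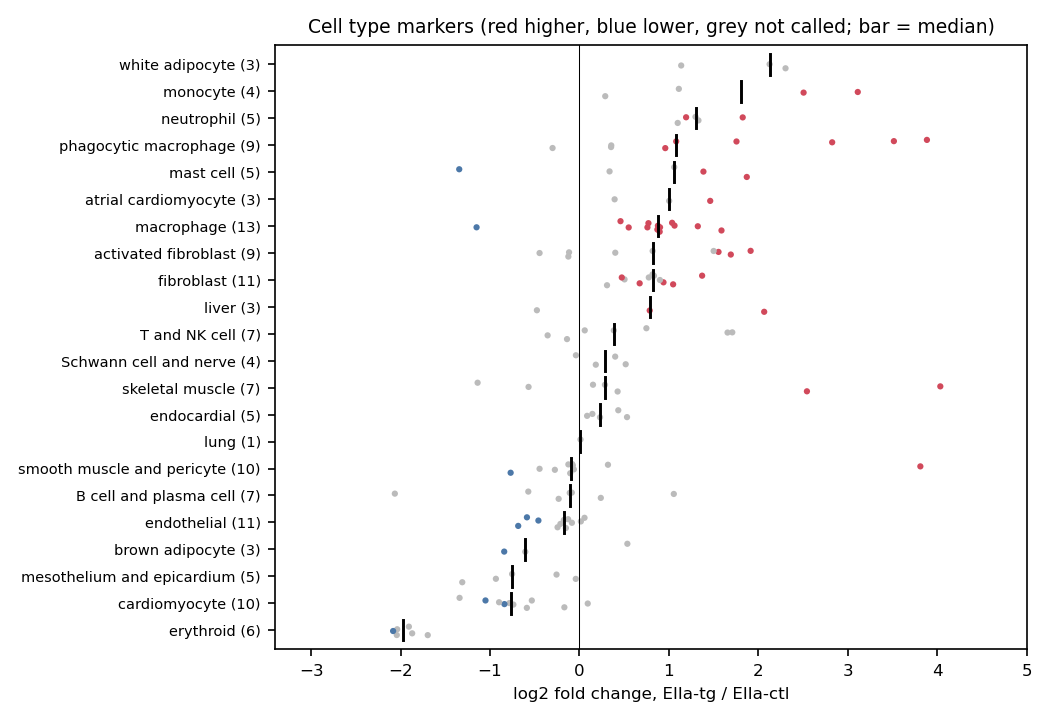
Log2 fold change of each tested marker of 22 cell types (horizontal), 1 point per gene, red where called higher, blue where called lower and grey where not called, with the median as a black bar and the number tested in brackets. Of the 13 macrophage markers 12 are red, and the 6 erythroid markers lie between -2.08 and -1.70 with 1 called.

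Fibroblast markers were called higher in 5 of 11 cases and lower in 0, with a median of 0.82 and sums of 2982 to 3908 CPM in controls and 4968 to 6935 CPM in EIIa-tg hearts. Pdgfra, the receptor that defines cardiac fibroblasts, rose little (41.3, 42.8 and 42.6 against 63.1, 46.2 and 66.5 CPM), and Tcf21, a transcription factor of resting fibroblasts, was not called (0.31). Of 9 markers of activated fibroblasts 3 were called higher, namely Lox, which crosslinks collagen (6.90, 4.12 and 5.94 against 22.3, 12.6 and 29.2 CPM, log2 fold change 1.91), Tnc (1.69) and Cilp (1.55). A further 3 of the 9 had a log2 fold change below 0. The summed level of the 9 overlapped between groups, with 233 to 463 CPM in controls and 249 to 493 CPM in EIIa-tg hearts. Of 10 cardiomyocyte markers 2 were called lower by edgeR and 6 by DESeq2, with sums of 43441 to 52579 CPM in controls and 22196 to 38394 CPM in EIIa-tg hearts. The falls in calcium, channel and fuel genes described above moved with this sum in the same hearts, with replicate 2 nearest to controls, and its part in them was not tested. Tnnt2 (0.09) and Ttn (-0.17) of the same list were near 0.

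Erythroid markers had the lowest median of the marker lists (-1.97). Alas2, the first enzyme of heme synthesis in red cell precursors, had 23.1, 24.1 and 13.5 CPM in controls and 2.43, 10.05 and 1.74 CPM in EIIa-tg hearts (log2 fold change -2.08, SE 0.59, adjusted p = 0.0460, and a log2 fold change of -3.28 without EIIa-tg replicate 2), and the sum of 6 erythroid markers was 2273, 2515 and 1486 CPM in controls and 326, 1233 and 189 CPM in EIIa-tg hearts. The globin genes, whose near-identical copies share reads, had log2 fold changes between -2.04 (Hbb-bt) and -1.70 (Hba-a1) and were not called by edgeR, with 5 of the 6 markers called without EIIa-tg replicate 2. How much blood was washed from each heart is not given in the sources used here. Alb, the main liver gene, had 209 counts in EIIa-tg replicate 1, 21 in EIIa-ctl replicate 1 and 0 in the other 4 hearts, whereas Ahsg, which encodes a secreted protein made mainly in liver, had 1.69, 3.29 and 1.70 CPM in controls and 10.2, 4.59 and 13.2 CPM in EIIa-tg hearts (log2 fold change 2.07, SE 0.42, adjusted p = 0.0221). White fat genes were at or under 85 counts in each heart (Cfd), and of the 3 tested 0 were called by edgeR and 0 by DESeq2 (1 was higher at an unadjusted p under 0.05).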

How the data were processed

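RNA of heart tissue from 30-day-old mice, 6 samples, was sequenced by the authors, who counted reads per gene and deposited raw counts and FPKM for all hearts. Per the labels and the submitters' processing notes, HISAT2 2.0.4, StringTie 2.2.1 and DESeq2 were named together with the builds GRCm39 and mm10, while the study's methods name GRCm38, so that the build of the counts is not settled. The deposited FPKM values divide counts by transcript length and by a library size that the authors set.

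Hearts were grouped by their titles, and nothing in the labels pairs them beyond a shared replicate number. Raw counts were fitted with edgeR 4.0.16 (R 4.3.3), using its filter on low counts, TMM scaling and the quasi-likelihood test of EIIa-tg against EIIa-ctl without covariates. P-values were adjusted over all 14908 loci by the Benjamini-Hochberg method and called at 0.05. TMM factors were 0.901 to 0.975 in EIIa-ctl and 1.02 to 1.15 in EIIa-tg hearts. A floor of 3 counts corresponded to 0.0589 to 0.0742 CPM. Floors cover counting error only.

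The hearts compared, the gene lists (43 groups and 24 sets of cell markers) and the threshold were chosen with earlier results of these data known, so that counts over lists are descriptions. Named genes were the up to 4 called members of each list with the lowest p, an average of 5 CPM or more and separate groups, the 12 largest rises and falls, the 10 genes with the most counts and a few chosen whatever their result. A few genes that the rule names are not reported here. Other genes, most of them list members that were not called or lower in rank, were named after their values were seen.

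Positions are those of GENCODE M21 (GRCm38) for 22022 of 22036 Ensembl identifiers. Promoter letters were read from RefSeq's GRCm38.p6 table. A further 3135 loci without a gene name (NewGene) were kept in the fit, of which 1021 were tested and 108 called higher and 64 lower. Steps were tested on simulated data. DESeq2 1.42.0, limma 3.58.1 on log2 FPKM, other filters and scalings, covariates and leaving out each heart served as alternatives.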

Additional observations from a re-analysis of the deposited data

How the results depend on the processing

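The number of called genes depended on which hearts were used and on the tool. With 1 heart left out in turn, genes called higher ranged from 0 to 1969 and genes called lower from 0 to 2110, and at 2-fold or more from 0 to 824 and from 0 to 669. The lowest values were those without replicate 1 of either group and the highest those without EIIa-tg replicate 2, the heart nearest to the controls. Most of the 201 named genes were chosen as called and without overlap between groups, so that their sign could hardly turn. Keap1, which was not called, changed sign, to -0.013 on the log2 scale without EIIa-tg replicate 2, with log2 fold changes of -0.013 to 0.064 over the hearts left out. Fitting all 12 hearts together, which adds the spread of the 90-day-old hearts, called 176 higher and 51 lower (147 and 35 at 2-fold or more). A covariate for sex, inferred from Y-linked counts, left 718 called lower and 962 higher. At an adjusted p under 0.01 edgeR called 0 in either direction, with 5204 loci at an unadjusted p under 0.05, whereas DESeq2 called 1089 higher and 1020 lower.

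On log2 FPKM with limma, 2237 were called higher and 634 lower with a pseudocount of 1, and 2363 and 640 with a pseudocount of 0.1, where 883 were higher at 2-fold or more. With a pseudocount of 1, 79 were lower at 2-fold or more, and without a filter on low values 1 was called higher and 0 lower (0 in both directions at 2-fold). The FPKM of these hearts were centred 0.13 to 0.20 above 0 on the log2 scale. The cause was not tested. RLE scaling, DESeq2 at 0.05, other filters on low counts, the bias-adjusted test, and leaving out the mitochondrially encoded or unnamed loci gave all 4 counts within 1.5 times.

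With the replicate number as a block, 1 gene was called higher and 0 lower (1 and 0 at 2-fold or more), with 4583 loci at an unadjusted p under 0.05. Deviations of hearts with the same number correlated at 0.07, -0.08 and -0.08, and not every heart correlated best with its own number. Deviations of 3 hearts from their group mean sum to 0, so these correlations cannot decide whether the hearts were paired. Replicate 1 of each group was also the only heart with Y-linked counts, so that the number partly follows sex. At 3 hearts a group, and with replicate 2 of EIIa-tg between the groups, an adjusted p just above the threshold does not show that a gene did not differ, and genes near the floor of 3 counts cannot be ranked.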
